A study of Mus musculus with 8 samples.

Results

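The genes described here encode the core machinery of inflammatory cell death: the inflammasome and the inflammatory caspases (Nlrp3, Pycard, Casp1, Casp4), the pore-forming protein of pyroptosis (Gsdmd) and the death-receptor and necroptosis chain (Casp8, Ripk1, Ripk3, Mlkl). They were fixed by name, but with earlier results of these data known. All 9 were found among the 35204 gene symbols of the table and all 9 were among the 14171 genes tested, which had a mean of at least 10 normalised counts over the libraries. The data are 8 poly-A libraries made from mouse liver. The 3 control libraries came from wild-type C57BL/6J mice labelled as given no treatment. The 5 TAZ-CCl4 libraries came from wild-type C57BL/6J mice that were given TAZ S89A, an activated form of the Hippo pathway coactivator TAZ, from a construct named for the EF1a promoter, by HTVI (hydrodynamic tail vein injection), and the hepatotoxin carbon tetrachloride (CCl4) on 30 occasions, 3 per week over 10 weeks. EF1a is a broadly active promoter and is not restricted to one cell type, while hydrodynamic injection delivers DNA mainly to hepatocytes. No group received TAZ S89A alone, CCl4 alone, or an injection without TAZ S89A, so the effects of these cannot be told apart. The 2 groups were also prepared under different library projects according to the labels, and project and treatment cannot be told apart either. Age and sex are not given in the labels, and the labels do not tie each library to its own mouse. The spread behind each p-value is thus that of the libraries and could be technical.

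Inflammasomes are cytosolic complexes in which a sensor such as NLRP3 recruits the adaptor ASC, encoded by Pycard, to activate caspase-1. Caspase-1, and the caspase encoded by Casp4, which binds bacterial lipopolysaccharide in the cytosol, cut gasdermin D, whose freed part opens pores in the plasma membrane. Necroptosis runs through the kinases RIPK1 and RIPK3 to the pseudokinase MLKL, and caspase-8 holds it in check by cutting RIPK1 and RIPK3. Liver macrophages are known for inflammasome activity, and healthy mouse hepatocytes are known to contain little RIPK3.

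The authors' normalised counts summed to 29800000 to 35100000 per control library and 12400000 to 14200000 per TAZ-CCl4 library, rounded to 3 digits. The value of 1 read, taken as the most frequent low value of a library, puts the depth at about 18600000 to 24900000 reads in the controls and 12400000 to 33800000 in the TAZ-CCl4 libraries, as an estimate. Of the tested genes 62.3% changed (limma, adjusted p under 0.05), 32.4% in the higher and 29.8% in the lower direction. Over all tested genes the log2 fold change had a median of 0.03 as deposited, of 0.22 with upper quartiles made equal and of 1.26 with totals made equal. Directions below are therefore relative to the deposited scaling, in which the median gene was close to 0, unless another is named. Hepatocyte markers identified the tissue as liver in both groups, at summed levels of 2025550 to 2534880 normalised counts in the controls and 713336 to 1035390 in the TAZ-CCl4 libraries.

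Of the 9 genes, 6 rose (Nlrp3, Pycard, Casp1, Casp4, Ripk3 and Mlkl), against 32.4% of all tested genes that rose. Casp8 fell, a direction that turned at equal totals, against 29.8% of all tested genes that fell, and Gsdmd and Ripk1 did not pass the test. The median log2 fold change of the 9 was 1.54, against 0.03 for all tested genes. In each of the 6 that rose, the lowest TAZ-CCl4 library lay above the highest control, which held for 30.7% of all tested genes (60.1% were without overlap in either direction). In the other 3 the groups overlapped. The 3 genes that did not rise were also the 3 with the highest values per length in the controls.

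**Figure D1:**
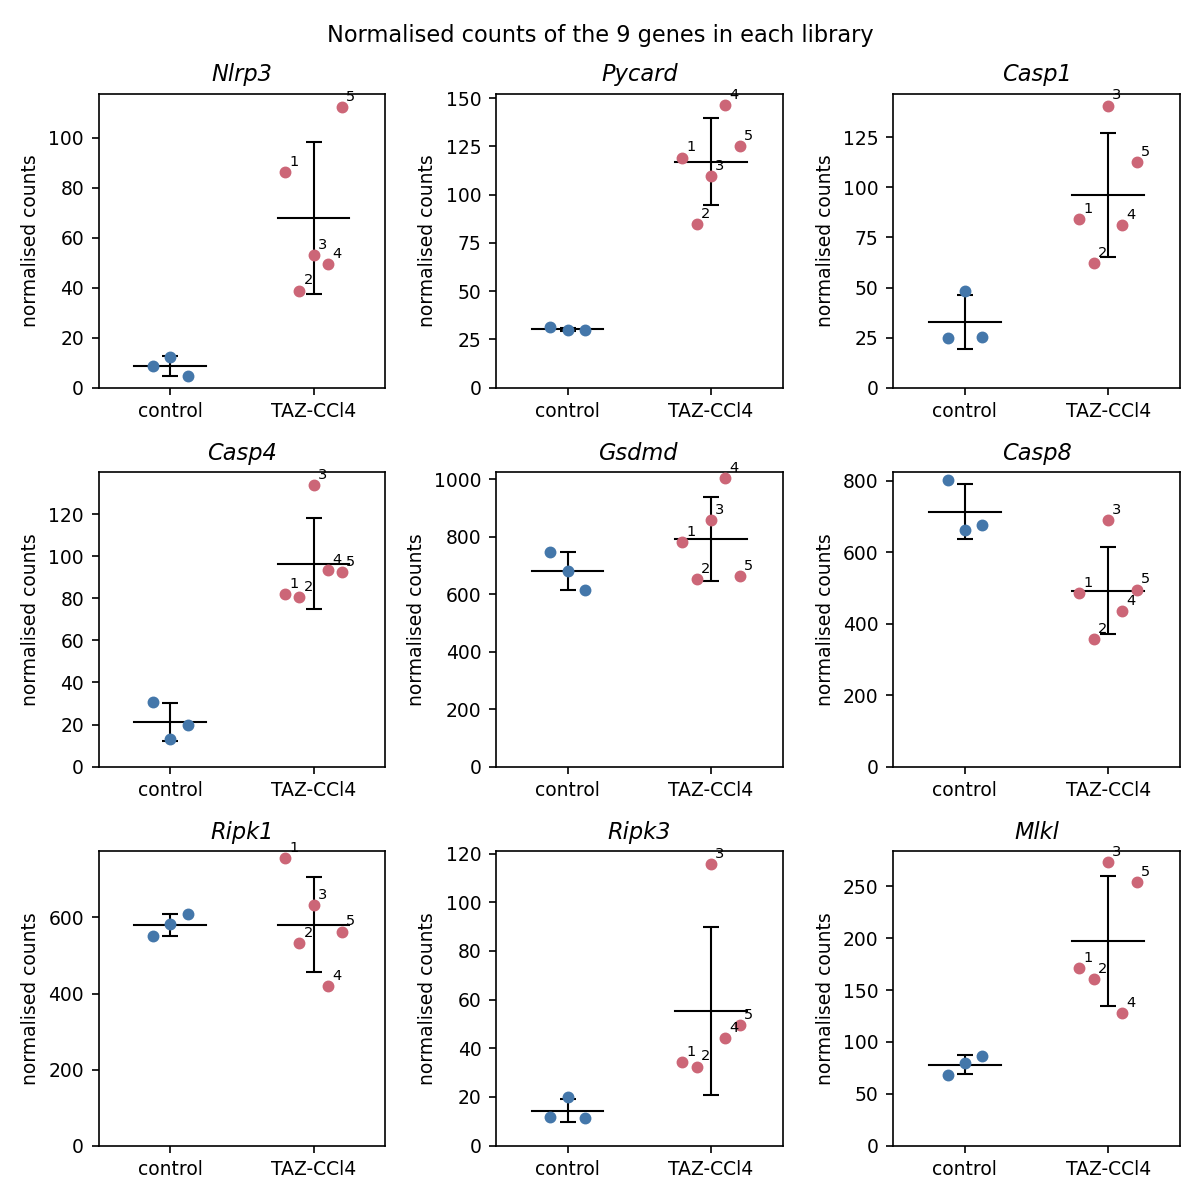
Normalised counts (linear axis from 0) of the 9 genes in the 3 control libraries (blue) and the 5 TAZ-CCl4 libraries (red, numbered by replicate), with the mean as a line and the SD as an error bar. The groups are separate for Nlrp3, Pycard, Casp1, Casp4, Ripk3 and Mlkl and overlap for Gsdmd, Casp8 and Ripk1.

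Of the inflammasome genes, the sensor gene Nlrp3 (mm10 chromosome 11, 59541568 to 59566956) had the largest fold change of the 9. Control replicates 1 to 3 held 8.85, 12.5 and 4.50 normalised counts, and TAZ-CCl4 replicates 1 to 5, in that order here and below, held 86.2, 38.8, 53.1, 49.4 and 112. All 5 TAZ-CCl4 values exceeded every control value, and replicates 1 and 5 were the highest. Nlrp3 thus rose, with a log2 fold change of 2.83 ± 0.44 (SE; adjusted p = 0.000266 by limma). The control values correspond to only about 3.76 to 10.3 reads per library, so the control level and hence the fold change are imprecise.

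Pycard (chromosome 7, 127989708 to 127993867), which encodes the adaptor ASC, was the most even of the 9 in the controls. The control values of Pycard correspond to only about 16.6 to 24.9 reads per library, so this evenness may not be a trait of the gene. Its normalised counts were 31.2, 30.0 and 29.8 for the controls and 119, 84.8, 109.7, 147 and 125 in the TAZ-CCl4 libraries. Every TAZ-CCl4 library lay above the controls, and Pycard rose by 1.89 ± 0.23 on the log2 scale (SE; limma, adjusted p = 6.01e-05). Of the 31-base words in its annotated transcripts 12.7% also occur in transcripts of other genes, chiefly an opposite-strand transcript (Gm45205) and Mvp, so a part of its reads could be shared. Mvp was also higher with TAZ-CCl4, at 1120.5 ± 69.9 normalised counts in controls (SD, n = 3) and 2049 ± 487 with TAZ-CCl4 (SD, n = 5). The part of shared reads in the Pycard values was not tested.

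Casp1 (chromosome 9, 5298517 to 5307265), which encodes the protease that matures the cytokines interleukin-1 beta and interleukin-18, stood at 24.6, 48.3 and 25.2 normalised counts in the controls. In the TAZ-CCl4 libraries it stood at 84.3, 62.1, 141, 81.2 and 112. The gap was narrowest between control replicate 2 and TAZ-CCl4 replicate 2, without overlap. Casp1 rose, with a log2 fold change of 1.54 ± 0.33 (SE; adjusted p = 0.00244 by limma).

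Casp4 (chromosome 9, 5308828 to 5336783) starts 1563 bases after the end of Casp1 on the same strand, and its product, long called caspase-11 in the mouse, acts in what is called the non-canonical inflammasome. Control replicates 1 to 3 held 30.6, 13.1 and 19.8 normalised counts of Casp4, and TAZ-CCl4 replicates 1 to 5 held 82.1, 80.4, 134, 93.5 and 92.5. Both neighbours were thus higher in every TAZ-CCl4 library, and for both genes replicate 3 was the highest and replicate 2 the lowest. Casp4 rose by 2.19 ± 0.31 on the log2 scale (SE; limma, adjusted p = 0.000159). Their annotated transcripts share few 31-base words with other genes, 0% for Casp1 and 1.98% for Casp4. The control values of Casp4 rest on about 10.9 to 16.5 reads per library.

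Gsdmd (chromosome 15, 75862327 to 75867408) encodes gasdermin D, the shared substrate of both caspases. Control values were 746, 681 and 616 normalised counts, against 783, 652, 857, 1004 and 663 with TAZ-CCl4. The ranges overlapped, and only TAZ-CCl4 replicates 1, 3 and 4 exceeded the highest control. Its log2 fold change was 0.20 ± 0.16 (SE; limma, adjusted p = 0.299).

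Casp8 (chromosome 1, 58795374 to 58847503) encodes the initiator caspase that triggers apoptosis below death receptors and restrains necroptosis. Its normalised counts were 800.4, 661 and 676 for the controls, against 485, 357, 688, 435 and 495 for the TAZ-CCl4 libraries. TAZ-CCl4 replicate 3 lay within the control range and the other 4 lay below it. Of its 31-base words 8.64% also occur in other genes, chiefly the predicted gene Gm20257. The log2 fold change was -0.56 ± 0.19 (SE; limma, adjusted p = 0.0281). This call was lost without control replicate 1, 2 or 3 (log2 fold changes of -0.47, -0.61 and -0.60) and without TAZ-CCl4 replicate 4 (-0.53), and the direction was positive at equal totals (0.69). The annotated start sites of Casp1, Casp4, Casp8 and Ripk3 are shown as RefSeq gives them (build GRCm38.p6, the same assembly as mm10), because they set the neighbouring pair of caspases that rose beside the caspase that did not and the kinase it cuts. Each window runs from 250 bases before to 50 bases after the start, 5′ to 3′ on the strand of the gene, and capitals mark matches to the NF-kappaB motif (in Casp4) or to the IRF motif (in Casp8).
Casp1, chr9:5298267-5298566, plus strand: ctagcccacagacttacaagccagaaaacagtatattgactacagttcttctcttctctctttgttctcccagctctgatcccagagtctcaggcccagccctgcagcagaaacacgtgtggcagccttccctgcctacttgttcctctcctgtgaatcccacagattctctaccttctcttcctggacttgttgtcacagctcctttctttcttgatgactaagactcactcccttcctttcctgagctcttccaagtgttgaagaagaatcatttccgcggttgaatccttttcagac
Casp4, chr9:5308599-5308898, plus strand: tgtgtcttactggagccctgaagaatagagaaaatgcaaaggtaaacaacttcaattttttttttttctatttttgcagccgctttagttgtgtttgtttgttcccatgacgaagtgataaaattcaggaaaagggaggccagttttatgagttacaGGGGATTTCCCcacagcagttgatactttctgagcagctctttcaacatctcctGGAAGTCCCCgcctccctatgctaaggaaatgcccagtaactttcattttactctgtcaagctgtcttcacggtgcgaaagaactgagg
Casp8, chr1:58802252-58802551, plus strand: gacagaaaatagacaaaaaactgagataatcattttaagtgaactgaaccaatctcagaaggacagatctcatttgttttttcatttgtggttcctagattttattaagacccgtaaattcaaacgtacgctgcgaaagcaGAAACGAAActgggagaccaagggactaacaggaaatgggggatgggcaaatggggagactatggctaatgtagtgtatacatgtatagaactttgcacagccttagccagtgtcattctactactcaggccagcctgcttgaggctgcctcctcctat
Ripk3, chr14:55788808-55789107, minus strand: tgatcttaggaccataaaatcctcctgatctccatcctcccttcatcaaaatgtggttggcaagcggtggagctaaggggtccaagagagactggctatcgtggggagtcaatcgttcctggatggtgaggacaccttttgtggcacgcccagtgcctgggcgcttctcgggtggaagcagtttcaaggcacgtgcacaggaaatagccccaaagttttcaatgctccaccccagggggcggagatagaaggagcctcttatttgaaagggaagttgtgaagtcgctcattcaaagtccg

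Start-site windows were found for 8 of the 9 genes, all but Gsdmd, with 2 windows each for Casp4, Nlrp3 and Ripk1. They were searched on both strands for motifs of TEAD (GGAATG), the DNA-binding partner of TAZ, of AP-1 (TGANTCA), of IRF factors (2 copies of GAAA with 1 or 2 bases between them), of STAT factors (TTCNNNGAA) and of NF-kappaB by its 10-base consensus. Among 32851 windows of 300 bases genome-wide, 14.7% held the TEAD motif, 7.81% AP-1, 6.27% IRF, 8.3% STAT and 8.46% NF-kappaB. The Casp4 window held 3 NF-kappaB matches, 2 of which overlap. The second Nlrp3 window held 1 NF-kappaB match and the Casp8 window 1 IRF match. TEAD letters occurred only in the first Ripk1 window, once, and the second Ripk1 window held 1 IRF and 2 STAT matches. The windows of Casp1, Pycard, Ripk3 and Mlkl held none of the 5 motifs. A match is a run of letters and was not tested for binding.

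Ripk1 (chromosome 13, 34002363 to 34037147) encodes the kinase at which death-receptor signals branch between survival, apoptosis and necroptosis. Its control values were 552, 582 and 609 normalised counts, and its TAZ-CCl4 values were 756, 533, 633, 419 and 563. The TAZ-CCl4 values lay on both sides of the control range. The log2 fold change was -0.03 ± 0.18 (SE; limma, adjusted p = 0.906), and it was 1.22 at equal totals. Ripk1 shares 511 exonic bases with a same-strand pseudogene (Gm17084) and 241 with the opposite-strand gene Serpinb6a, a serine protease inhibitor gene with 152 ± 43.5 normalised counts in controls (SD, n = 3) and 1600.4 ± 320.1 with TAZ-CCl4 (SD, n = 5). Of the 31-base words of Ripk1, 8.51% also occur in other genes, and although the labels name a stranded library, the use of strand in counting is not given in the sources used here.

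Ripk3 (chromosome 14, 55784995 to 55788865) encodes the kinase that phosphorylates MLKL. Control libraries held 11.9, 19.8 and 11.4 normalised counts of Ripk3, against 34.4, 32.5, 116, 44.0 and 49.5 with TAZ-CCl4. Every TAZ-CCl4 value exceeded the controls, and replicate 3 stood well above the other 4. Ripk3 rose, with a log2 fold change of 1.74 ± 0.44 (SE; adjusted p = 0.00564 by limma), which was 1.44 without TAZ-CCl4 replicate 3. Control values rest on about 6.34 to 16.5 reads per library.

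Mlkl (chromosome 8, 111311797 to 111338177) encodes the pseudokinase that ruptures the plasma membrane in necroptosis. The controls held 68.3, 79.5 and 86.1 normalised counts, and the TAZ-CCl4 libraries held 171, 161, 273, 128 and 254. All TAZ-CCl4 libraries were above the controls, with replicates 3 and 5 the highest and replicate 4 the lowest. The log2 fold change was 1.28 ± 0.27 (SE; limma, adjusted p = 0.00192), the smallest of the 6 rises.

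Partner genes were compared by the log2 ratio of 2 genes within a library. A single scaling factor per library leaves this ratio unchanged, apart from the pseudocount of 1. In bulk tissue the 2 transcripts can come from different cells, so the ratio is not a balance within a cell. Where Ripk3 or Nlrp3 enters, the ratio rests on few reads in the controls. For 6 pairs the group difference was tested by an exact two-sided permutation test on the absolute difference over all 56 assignments, for which the smallest possible p is 0.0179. Ratios of unequal-length genes are read only between groups, not as relative amounts. Casp8 stood lower against Ripk3 in all 5 TAZ-CCl4 libraries, going from log2 ratios of 5.95, 4.99 and 5.77 in the controls to 3.78, 3.42, 2.56, 3.28 and 3.30. The groups did not overlap, and the difference was -2.30 ± 0.36 (SE; exact permutation p = 0.0179, 0.0536 after adjustment over the 6 ratios). Against Casp1, Gsdmd moved the same way, from 4.87, 3.79 and 4.56 to 3.20, 3.37, 2.60, 3.61 and 2.55, a difference of -1.34 ± 0.38 (SE; exact permutation p = 0.0179, adjusted 0.0536). Here too the groups were separate, though control replicate 2 and TAZ-CCl4 replicate 4 lay only a short distance apart.

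Ripk3 stood higher against Ripk1 in the TAZ-CCl4 libraries. The log2 ratio was -5.42, -4.80 and -5.62 in the controls and -4.42, -3.99, -2.44, -3.22 and -3.48 in the TAZ-CCl4 libraries, a difference of 1.77 ± 0.42 (SE; exact permutation p = 0.0357, adjusted 0.0714). None of these 3 ratios passed 0.05 after adjustment over the 6, although each had the same direction in all 5 TAZ-CCl4 libraries. The remaining pairs overlapped between groups. The difference was -0.47 ± 0.34 for Mlkl to Ripk3 (SE; exact permutation p = 0.214), 0.65 ± 0.64 for Casp4 to Casp1 (SE; exact permutation p = 0.214) and -0.94 ± 0.45 for Pycard to Nlrp3 (SE; exact permutation p = 0.0893).

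**Figure D2:**
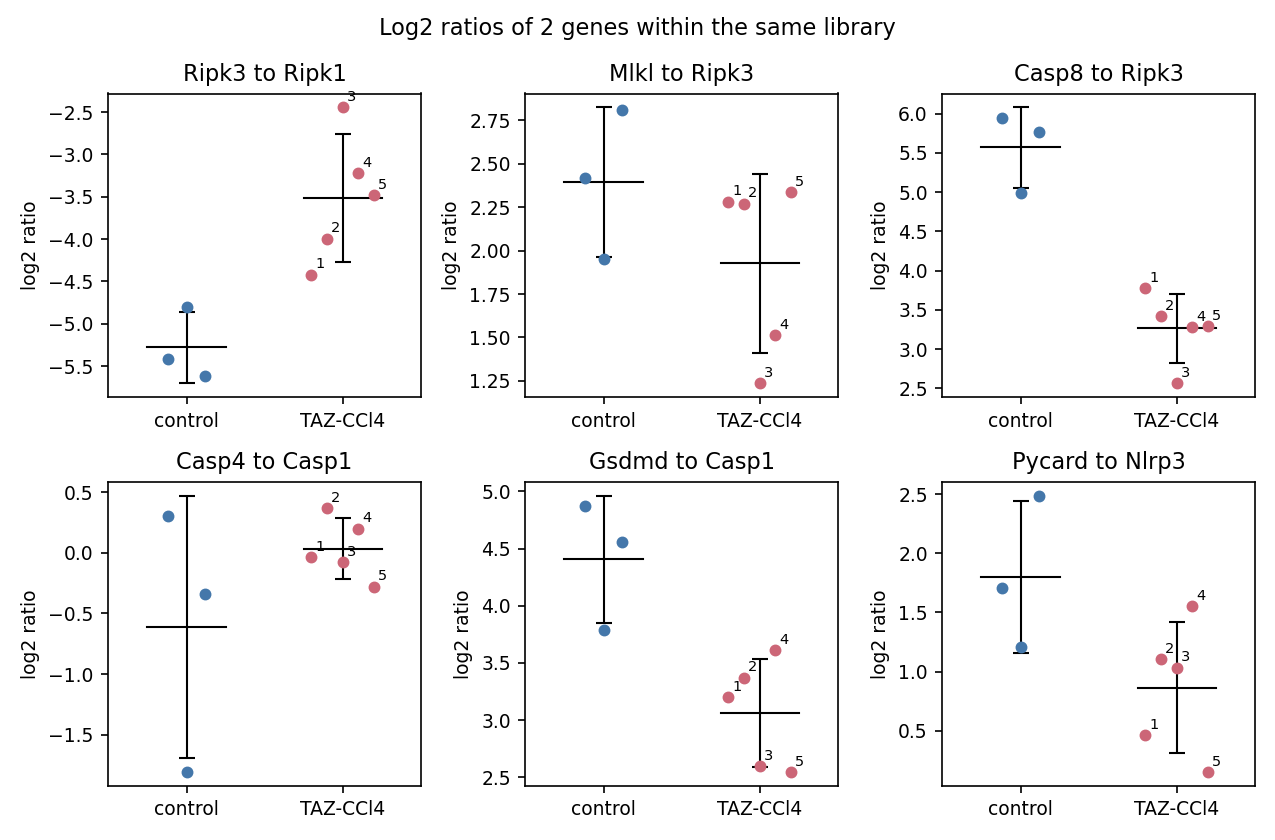
Log2 ratio of 2 genes within each library for the 6 pairs, in the 3 control (blue) and 5 TAZ-CCl4 libraries (red, numbered by replicate), with the mean as a line and the SD as an error bar. The y axes do not start at 0. The groups are separate for Ripk3 to Ripk1, Casp8 to Ripk3 and Gsdmd to Casp1 and overlap for the other 3 pairs.

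How the libraries were scaled changed the direction of 2 of the 9 genes (Casp8 and Ripk1) and the calls of 6, all but Nlrp3, Pycard and Casp4. At equal totals all 9 were called as higher, as were 76.3% of all tested genes, Casp8 with a log2 fold change of 0.69, Ripk1 with 1.22 and Gsdmd with 1.45. At equal upper quartiles the same 6 genes as in the deposited scaling were called as higher, against 38.6% of all tested genes, and none as lower, with Casp8 at -0.36 (limma, adjusted p = 0.124). After quantile normalisation only Nlrp3 (1.75), Casp4 (1.20) and Pycard (0.95) were called, 3 of 9 against 27.8% of all tested genes called as higher. Casp1 (0.57), Ripk3 (0.70) and Mlkl (0.67) stayed positive there and did not pass. The order of the genes changed less: Casp8 was the lowest of the 9 and Nlrp3 the highest under each of these 4 scalings.

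**Figure D3:**
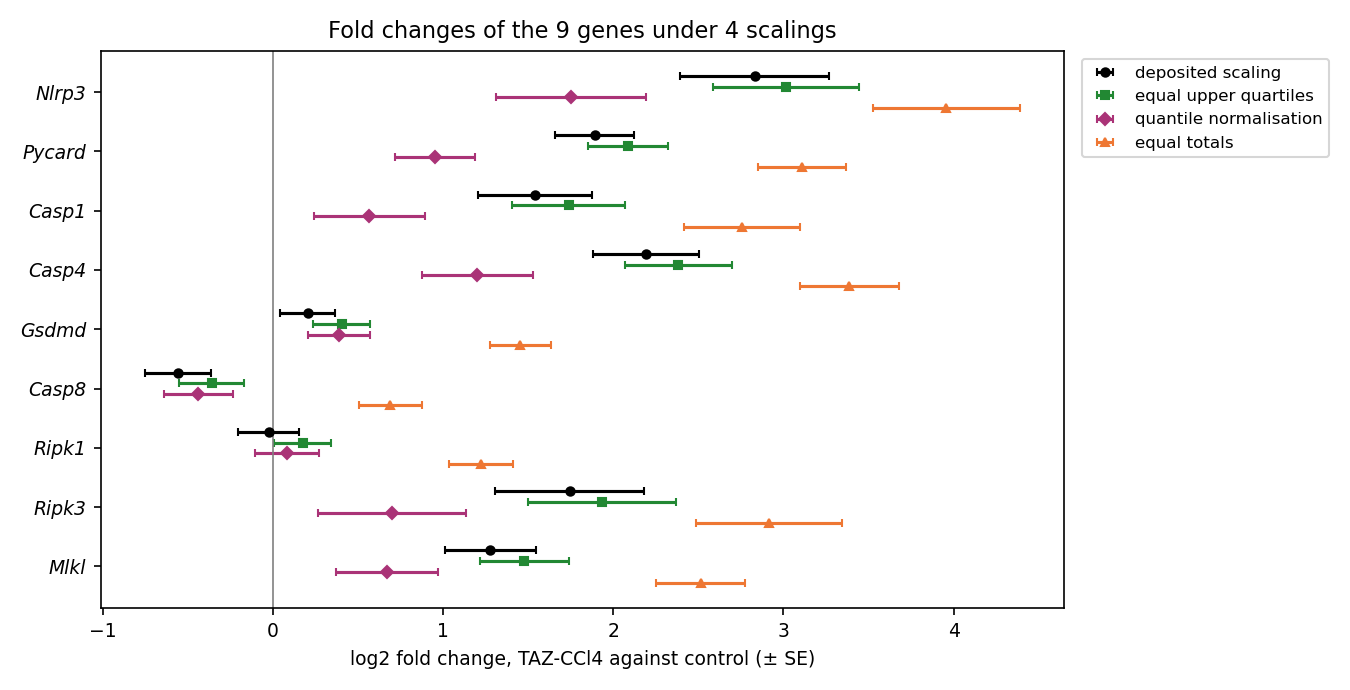
Log2 fold change of TAZ-CCl4 against control libraries (x axis, ± SE from limma) for the 9 genes at the deposited scaling, equal upper quartiles, quantile normalisation and equal totals. Nlrp3, Pycard, Casp1, Casp4, Gsdmd, Ripk3 and Mlkl lie above 0 under all 4, and of these Nlrp3, Casp4 and Pycard were called as higher under each. Casp8 moves from -0.56 at the deposited scaling to 0.69 at equal totals.

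Levels were compared between genes per kilobase of merged exons, which treats all annotated exons as expressed. The merged exons of Pycard (3800 bases) cover most of its span, so its level per kilobase is a low estimate if shorter transcripts dominate. In the controls Gsdmd and Casp8 were highest, at 286 ± 27.4 and 246 ± 26.4 normalised counts per kilobase (SD, n = 3), with overlapping ranges. Ripk1 followed at 69.6 ± 3.44, then Mlkl at 33.9 ± 3.92 and Casp1 at 21.8 ± 9.04, which overlapped each other. Pycard (7.99 ± 0.201), Ripk3 (6.28 ± 2.06) and Casp4 (5.70 ± 2.39) could not be ordered beyond their spread, and Nlrp3 was lowest at 2.12 ± 0.981. In the TAZ-CCl4 libraries Gsdmd stood at 333 ± 61.5 and Casp8 at 170.2 ± 42.3 (SD, n = 5), and their ranges no longer overlapped. Mlkl (85.7 ± 27.4), Ripk1 (69.6 ± 15.0) and Casp1 (64.2 ± 20.5) formed an overlapping middle group. Pycard (30.8 ± 5.93), Casp4 (26.0 ± 5.83), Ripk3 (24.1 ± 15.0) and Nlrp3 (16.8 ± 7.51) stood lowest, and each overlapped its neighbour in this order.

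The 5 TAZ-CCl4 libraries were not alike for these genes. Replicate 3 was the highest of the 5 for 5 of the 9 genes (Casp1, Casp4, Casp8, Ripk3 and Mlkl), and replicate 2 the lowest for 7 of the 9, all but Ripk1 and Mlkl. The coefficient of variation over the 5 libraries was largest for Ripk3 (62.4%) and Nlrp3 (44.8%) and smallest for Gsdmd (18.5%) and Pycard (19.3%). Nlrp3 was lowest in replicate 2, as were Casp1, Casp4 and Casp8, but its highest library was replicate 5. Pycard and Gsdmd were highest in replicate 4. Leukocyte markers moved with this pattern: all 5 pan-leukocyte markers and 8 of the 9 macrophage markers that rose were lowest in replicate 2, and 4 and 7 of them were highest in replicate 3. The part of these cells in the spread between the libraries was not tested.

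Markers of blood cells moved with the genes that rose. All 5 pan-leukocyte markers (Ptprc, Laptm5, Coro1a, Itgb2 and Cd53) rose, from a summed level of 352 to 605 normalised counts in the controls to 3141 to 5381 in the TAZ-CCl4 libraries. Of 10 macrophage markers 9 rose and Cd163 fell, with sums of 2517 to 3931 and 18988 to 33514. All 5 tested neutrophil markers rose, with sums of 61.8 to 69.9 and 399 to 725, although the defining genes Ly6g and Mpo were listed at 0 in every control and were too low to test. Resident Kupffer cell markers did not follow: of 6, none rose, Timd4 fell and 5 did not pass, with sums of 2972 to 4374 and 1915 to 5302. The TAZ-CCl4 libraries differed widely for these genes. Clec4f stood at 751, 1049 and 678 normalised counts in the controls and at 194, 33.8, 887, 29.0 and 576 with TAZ-CCl4. Only replicate 3 lay within the control range, and replicates 2 and 4 lay farthest below it. Cd5l and Vsig4 were also lowest in replicates 2 and 4, at 54.8 and 102 for Cd5l and 39.7 and 35.8 for Vsig4. Slc40a1 made up 93.9% and 89.9% of the sum in those replicates. The median log2 fold change of the list was -0.27, and from -0.69 without TAZ-CCl4 replicate 3 to 0.15 without replicate 2. Lymphocyte markers split, with 4 of 9 higher and 5 not passing, and summed 114 to 197 and 156 to 344. In bulk tissue, more cells of a type and more RNA per cell cannot be told apart.

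Of 8 bile duct markers 7 rose and Muc1 did not pass. Their sum went from 2326 to 2915 up to 34993 to 121911 normalised counts, of which Spp1 alone made up 85.3% to 94.4% in the TAZ-CCl4 libraries. Without Spp1, a variant chosen after seeing the data, the sums were 661 to 888 and 2972 to 8172. Stellate cell and fibroblast markers rose in 4 of 8, with sums of 1109 to 1700.5 and 5870.1 to 13315. Of 7 endothelial markers 3 rose, 3 fell and 1 did not pass, with sums of 1535 to 2998 and 1808 to 2908. Hepatocyte markers fell in 9 of 10, all but Alb. The part of any of these cell types in the values of the 9 genes was not tested.

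Relative to the summed pan-leukocyte markers of the same library, none of the 9 genes was higher in the TAZ-CCl4 libraries. The pan-leukocyte sum itself rose by 3.36 on the log2 scale, more than any of the 9 genes, of which Nlrp3 rose most (2.83). The difference in log2 ratio to that sum ran from -0.53 for Nlrp3 and -1.17 for Casp4, whose groups overlapped, to -3.92 for Casp8. The other 7 genes were lower without overlap, among them Casp1 at -1.81, Pycard at -1.46, Ripk3 at -1.61 and Mlkl at -2.08. Set against the macrophage markers the values were -0.28 for Nlrp3, -0.92 for Casp4 and between -1.22 and -3.67 for the others. For the bile duct markers, whose sum is mostly Spp1, 8 of the 9 genes were lower without overlap. Those differences ran from -1.58 for Nlrp3, whose groups overlapped, to -4.98 for Casp8. Against the Kupffer cell markers the 6 genes that rose remained higher without overlap, by 1.43 for Mlkl to 2.99 for Nlrp3. With Slc40a1 left out of that sum, a variant chosen after seeing the data, the same 6 were higher without overlap, by 2.38 for Mlkl to 3.93 for Nlrp3. These ratios are descriptions of the same libraries and carry no test.

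Other genes of the same pathways were taken from 7 lists of 92 genes in all. Of the 82 tested, 32 rose (39.0%) and 19 fell (23.2%), against 32.4% and 29.8% of all tested genes. Inflammasome sensors moved in opposite directions. Of 13 listed sensors 9 were tested, 6 rose, 2 fell and Nlrc4 did not pass. Naip2, whose product detects a bacterial secretion rod protein, rose from 55.0 ± 15.2 normalised counts (SD, n = 3) to 296 ± 103 (SD, n = 5), by 2.38 ± 0.28 on the log2 scale (SE; limma, adjusted p = 5.02e-05). The DNA sensor gene Aim2 rose from 27.6 ± 12.7 to 102 ± 17.5. Nlrp12, known as a brake on NF-kappaB signalling, fell from 1425, 1041 and 1419 in the controls to 9.25, 8.81, 37.6, 6.20 and 16.0, which is -6.55 ± 0.48 on the log2 scale (SE; limma, adjusted p = 2.29e-06). Nlrp6, known from gut epithelium, fell from 7401 ± 705 to 2023 ± 732 (log2 fold change -1.94). Aim2 and Nlrp6 were named after their values were seen.

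Of the 12 regulators of inflammasomes 4 rose, 3 fell and 5 did not pass. Panx1, a channel that releases ATP, rose from control values of 3.51, 5.61 and 6.62 to TAZ-CCl4 values of 96.5, 136, 135, 90.1 and 144. P2rx7, the ATP-gated channel upstream of NLRP3 (named after its values were seen), rose from 41.6 ± 7.78 to 216 ± 70.7. Casp12, a further caspase gene, rose from 35.4 ± 7.54 to 364 ± 62.8 (log2 fold change 3.33 ± 0.21). Of the listed guanylate binding protein genes, which are induced by interferon and were named after their values were seen, Gbp2 rose and Gbp3, Gbp5 and Gbp7 did not pass.

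At the deposited scaling the 2 cytokines matured by caspase-1 moved in opposite directions, though Il18 was not called as lower at equal totals. Il1b rose from control values of 5.01, 10.7 and 5.85 normalised counts to TAZ-CCl4 values of 277, 34.97, 152, 121 and 182 (4.03 ± 0.58 on the log2 scale, with SE; limma, adjusted p = 0.000169). Il18 fell from control values of 269.9, 287 and 275 to 65.3, 62.5, 95.5, 124 and 96.7 (-1.68 ± 0.24 on the log2 scale, with SE; limma, adjusted p = 0.000182). Neither pair of groups overlapped, and TAZ-CCl4 replicate 2 was the lowest of its group for both. The receptor antagonist gene Il1rn rose from 21.3 ± 4.56 to 191 ± 107. Over the whole list of effectors and cytokines 12 of 17 genes were tested, of which 5 rose, 2 fell and 5 did not pass. Of the other gasdermin genes on the list, all named after their values were seen, Gsdme rose, from control values of 31.1, 25.9 and 21.2 to 60.4, 40.6, 83.8, 113 and 89.9 (1.47 ± 0.35 on the log2 scale, with SE; limma, adjusted p = 0.00396). Its product, like gasdermin D, forms membrane pores, and is cut by caspase-3. Gsdmc, Gsdmc2 and Gsdmc3 were listed at 0 in all 8 libraries, and Gsdma and Gsdmc4 were too low to test.

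Upstream of RIPK1 and RIPK3, 7 of 15 tested inputs rose, 2 fell and 6 did not pass. Tnf, the ligand that starts the death-receptor route, was listed at 0 in control replicates 1 and 3 and at 3.95 in replicate 2, against 13.04, 10.1, 32.9, 28.0 and 29.3 with TAZ-CCl4. Zbp1, a nucleic acid sensor that binds RIPK3, rose from 148 ± 57.7 to 359.9 ± 125 (1.29 ± 0.30 on the log2 scale, with SE; limma, adjusted p = 0.00401). The death receptor gene Tnfrsf10b rose from 34.6 ± 19.6 to 217 ± 56.4 and Tlr4 from 14.0 ± 4.90 to 68.0 ± 9.77. Of the genes whose products sit with caspase-8, Cflar, the caspase-8-like regulator cFLIP, fell from 2312, 2309 and 2263 in the controls to 1431, 1705, 1399.9, 1071 and 1445, without overlap, though it was higher at equal totals (-0.72 ± 0.15 on the log2 scale, with SE; limma, adjusted p = 0.00166). The adaptor gene Fadd stood at 186 ± 13.4 and 149.7 ± 29.4 and did not pass (-0.33 ± 0.19 on the log2 scale, with SE; limma, adjusted p = 0.168).

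Among the 18 ubiquitin and kinase checkpoints of RIPK1, 5 rose, 7 fell and 6 did not pass. Tnfaip3, which encodes the ubiquitin-editing enzyme A20, rose from control values of 38.1, 48.0 and 18.5 normalised counts to TAZ-CCl4 values of 711, 639.6, 400.2, 406 and 749.8, by 4.07 ± 0.33 on the log2 scale (SE; limma, adjusted p = 4.07e-06). Its binding partner gene Tnip1 rose from 162 ± 26.3 to 624 ± 68.3. Of 10 ESCRT-III genes, whose products repair the membrane holes made in both forms of death, 2 rose, 1 fell and 7 did not pass. Chmp4c rose from 43.5 ± 1.90 to 714 ± 178 and Chmp2a, which was higher at equal totals, fell from 1761 ± 47.8 to 995 ± 40.9. Of 7 genes of the apoptotic caspase chain 4 rose, 2 fell and Casp6 did not pass, with Apaf1 going from 34.1 ± 8.05 to 413 ± 115 and Casp2 from 93.5 ± 5.005 to 329 ± 66.0.

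The counts of pathway genes moved with those of all genes when the scaling changed. At equal totals 71 of the 82 were called as higher and 3 as lower, where 76.3% and 6.39% of all tested genes were. At equal upper quartiles 41 were called as higher and 14 as lower, beside 38.6% and 23.4% of all tested genes. Under equal totals Cflar, Fadd and all other tested necroptosis inputs were called as higher, 15 of 15, as were all 10 ESCRT-III genes, in a scaling that lifts most genes. The 2 sensor genes that fell were still called as lower there, while no effector, cytokine, checkpoint or apoptotic caspase gene was. Of the 10 hepatocyte markers 5 were called as lower at equal totals, and of the endothelial markers none.

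**Figure D4:**
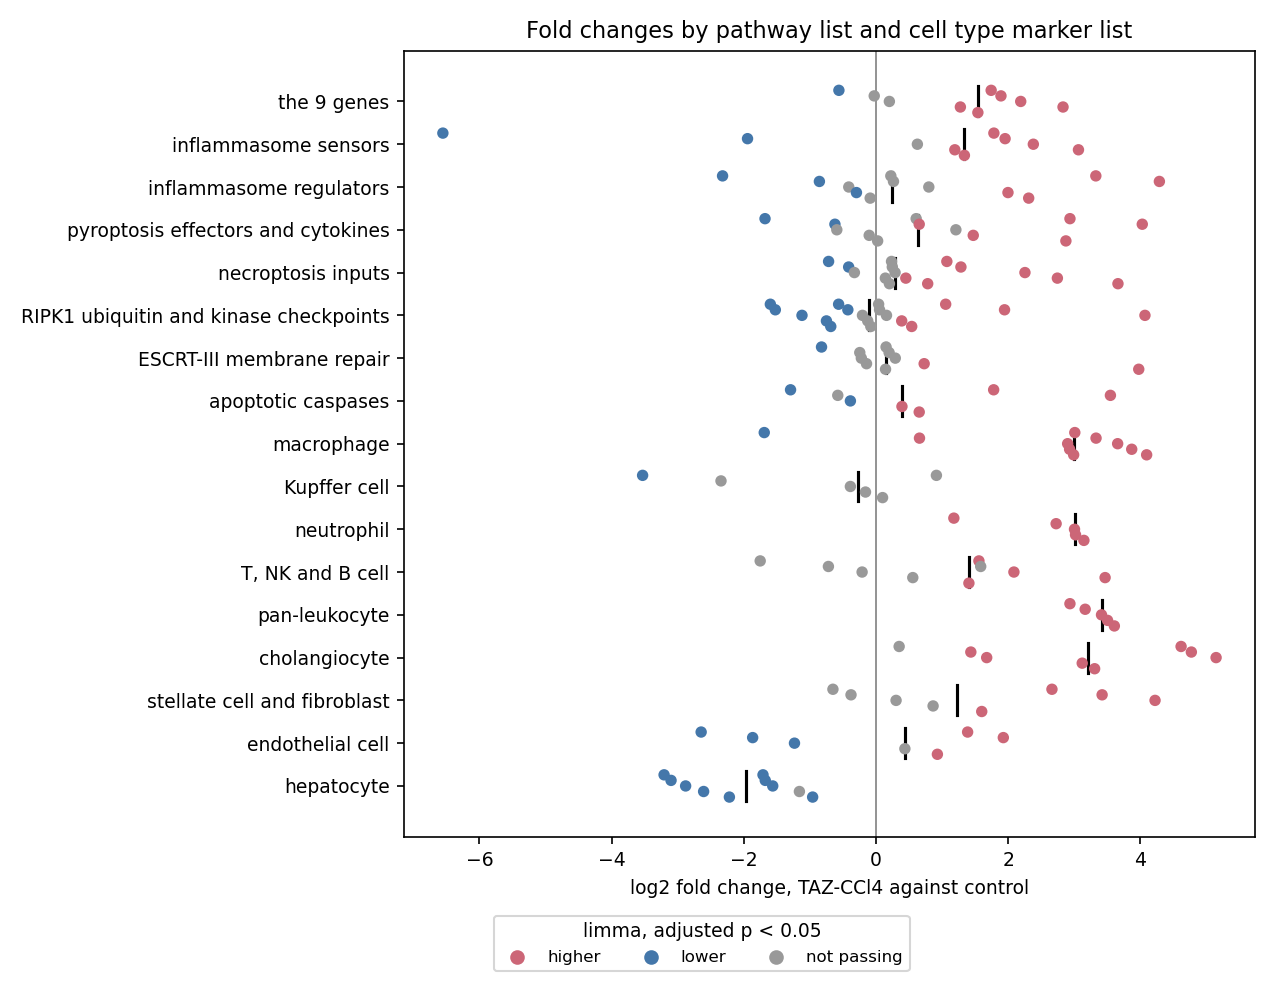
Log2 fold change of TAZ-CCl4 against control libraries (x axis) for each tested gene of the 9, of the 7 pathway lists and of the 9 cell type marker lists, coloured by the limma call, with the median of each list as a black line. The 9 genes have a median of 1.54, below the 3.41 of the pan-leukocyte markers, and the hepatocyte markers lie at -1.96.

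The gene with the most similar profile over the 8 libraries was sought for each of the 9 among all tested genes other than predicted ones, by the root mean square difference of centred log2 values. It was Mbd4 for Casp1 (0.083), Zfp41 for Casp4 (0.13), Tram1 for Casp8 (0.083), Fam49b for Pycard (0.108), Fryl for Gsdmd (0.051), Eif3c for Ripk1 (0.067) and Selenoh for Mlkl (0.122). Nlrp3 and Ripk3 had no close match. Their nearest genes were Slc15a3, which encodes an endolysosomal peptide transporter of immune cells, at 0.292, and Gins3, a replication complex gene, at 0.237. Within 0.3 of the profile lay 1 gene for Nlrp3 and 6 for Ripk3, against 2089 for Ripk1. The values were centred but not scaled, so genes that vary little have more neighbours within this distance. These counts therefore do not measure how distinctive a profile is, and the control values of Nlrp3 and Ripk3 rest on few reads.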

How the data were processed

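Liver RNA of 3 control and 5 TAZ-CCl4 libraries was sequenced as paired reads from poly-A libraries, per the labels' protocols. The deposited signal is a table of normalised counts per gene: the name of the deposited table gives kallisto and DESeq2, and per the submitters' processing notes the authors used DESeq2 and build mm10. The sources used here give no versions, transcript annotation or filters. Of the values under 10, between 47.3% and 66.8% per library lay within 0.03 of a whole multiple of the value of 1 read, too few to recover whole reads, and the values were not treated as reads.

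Genes with a mean of at least 10 were tested with limma 3.58.1 (R 4.3.3; trend in the prior variance) on log2(value + 1), with Benjamini-Hochberg adjustment over 14171 genes and a threshold of 0.05. On that scale the fold changes of low genes are understated. The fit was first checked on simulated log2 values with known changes. The simulation gave every gene the same spread and changed few genes, so it does not test the fit for genes with uneven spread or few reads. Within-library ratios were tested by exact permutation. Gene coordinates and shared 31-base words come from GENCODE M21.

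The 9 genes and all lists were chosen with earlier results of these data known. Beyond the 9, the text names the 2 called genes of each pathway list with the largest change and a higher group mean of at least 50, together with Il1b, Il18, Tnf, Zbp1, Fadd and Cflar, and the nearest profile of each of the 9; other names are marked or stand for counts. Alternatives covered the pseudocount, the filter, 4 other scalings, the variance model, a replicate block and leaving out each library.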

Additional observations from a re-analysis of the deposited data

Results flagged for a closer look

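Casp4 in TAZ-CCl4 replicate 3 stood apart from its group, at 134 normalised counts against 80.4 to 93.5 in the other 4 libraries. Its gap to the nearest library was 0.754 of the range of the group, above the critical value of 0.71 for 5 libraries. Ripk3 in the same replicate stood at 116 against 32.5 to 49.5, with a gap of 0.796 of the range. Of the 9 genes and 6 ratios, 15 sets of 5 values were examined, and chance flags about 1 in 20. Both genes were called as higher with and without this replicate.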

How the results depend on the processing

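Over 19 alternatives, Casp4 and Pycard kept their direction and their call, as did Nlrp3 over 18, since it was not tested with a mean of at least 50; Ripk3 was not tested there either. After quantile normalisation 3 of the 9 genes were called, and Casp1 (0.57), Ripk3 (0.70) and Mlkl (0.67) lost their calls there and under no other alternative. Casp8 turned to 0.69 at equal totals and to 0.27 when Mup and mitochondrial genes were left out of those totals, and its call was also lost at equal upper quartiles, after quantile normalisation and without any 1 of 4 libraries. Ripk1, close to 0, turned to 1.22 and 0.80 at those totals, 0.17 at equal upper quartiles and 0.0802 after quantile normalisation, and ran from -0.13 to 0.0843 when each replicate was left out in turn. Gsdmd passed at equal totals (1.45) and without Mup and mitochondrial genes (1.03). The cause of these changes was not tested.

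Leaving out each replicate in turn, the ratio difference ran from 1.502 to 2.01 for Ripk3 to Ripk1, from -1.65 to -1.11 for Gsdmd to Casp1, from 0.0504 to 1.11 for Casp4 to Casp1, from -1.24 to -0.60 for Pycard to Nlrp3, from -2.59 to -2.11 for Casp8 to Ripk3 and from -0.69 (without control replicate 2) to -0.26 (without control replicate 3; exact permutation p = 0.619) for Mlkl to Ripk3. With 1 library left out, p can only take steps of 0.0476 (control) or 0.0286 (TAZ-CCl4). Ripk3 to Ripk1 was one such step above the smallest p without TAZ-CCl4 replicate 2, 4 or 5 (exact permutation p = 0.0571), with differences of 1.89, 1.70 and 1.76 that are close to the full 1.77. Gsdmd to Casp1 was likewise one step above without TAZ-CCl4 replicate 2 (exact permutation p = 0.0571, difference -1.42) and control replicate 1 (0.0952, difference -1.11). Casp4 to Casp1 passed without control replicate 1 (exact permutation p = 0.0476) and Pycard to Nlrp3 without TAZ-CCl4 replicate 4 (0.0286).

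Deviations of same-numbered libraries correlated at -0.0665, -0.064 and -0.0883, and those of differently numbered libraries at -0.0904 to 0.073. No positive link by replicate number was seen, but so few values cannot exclude a pairing. With the replicate block 7280 genes were called, against 8822, and 6 of the 9 genes, with Casp8 at -0.53 (limma, adjusted p = 0.087) and Ripk1 at 0.13. Depth limits Nlrp3 and Ripk3 most, whose control values rest on few reads.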
